A study of Homo sapiens with 2 samples.

Results

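Many protein-coding genes also make RNAs that carry no intact reading frame, and RefSeq lists such an RNA of a coding gene under its own noncoding accession. The peaks described here were named for such noncoding isoforms. They were the rows of the lncRNA peak list whose gene symbol also stood in the mRNA peak list, with each genomic position counted once by its first row, and with TGFB2, ACTG1 and RPL22L1 left out. There were 876 such peaks for 549 genes, of 2849 peaks in the lncRNA list (30.7%) and of 10254 positions in the whole series.

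The peaks came from RNA immunoprecipitation sequencing (RIP-seq) in MKN-28, an established gastric cancer cell line that received no treatment. In this assay an antibody pulls down a protein from a cell extract and the RNA that comes with it is sequenced. The PTBP1 library was made with a PTBP1 antibody and its control with normal rabbit IgG, 1 library of each, and ribosomal RNA was removed from both. With 1 library per group, nothing below has a replicate check, and no p-value is given for any comparison.

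PTBP1 is an RNA-binding protein of the hnRNP family that binds pyrimidine-rich stretches such as UCUU in pre-mRNA. It is best known for repressing exons during splicing, and it also acts on RNA stability and translation. Noncoding isoforms of coding genes often arise when an exon is skipped or added or an intron is kept so that the reading frame breaks, and RNAs of this kind can be removed by nonsense-mediated decay. They share most of their sequence with the coding isoforms of the same gene, so a peak in a shared stretch cannot be placed on either one.

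The label of these genes held for nearly all of them, which the choice of symbols also present in the mRNA list makes likely. All 549 symbols matched RefSeq (GRCh38.p14) by the listed noncoding accession or, where that was missing, by symbol, and 544 were classed there as protein-coding. The other 5 went against the label. CRNDE, MYCNOS and C8orf31 (now LY6S-AS1) are classed as lncRNA genes, GATS (now CASTOR3P) as a transcribed pseudogene, and the noncoding accession listed for RGS5 now belongs to a separate lncRNA locus. Of the markers looked up, the gastric genes MUC1 and CLDN18 were 2 of 13 with any peak in the mRNA list, none of 6 blood genes had one and COL1A1 was 1 of 8 fibroblast and endothelial genes. None of the markers was among the 549, and a peak over IgG is not an expression level.

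Peaks at the start of a gene were the most frequent kind, so the promoter windows of 4 such genes are shown. They had the highest folds among promoter-class peaks that reached the window, whose gene span in RefSeq was within 100 bases of the listed span and whose gene had 1 RefSeq promoter entry. Each window runs 5′ to 3′ from 250 bases before to 50 bases after the RefSeq start in GRCh38.p14, all on the minus strand. The windows are chr22:19144602-19144901 for ESS2 (listed as DGCR14), chr3:131026776-131027075 for ASTE1, chr22:20495746-20496045 for KLHL22 and chr17:30824643-30824942 for CRLF3. Capitals mark the pyrimidine motif TCTTC or its reverse complement GAAGA, searched on both strands.
ESS2: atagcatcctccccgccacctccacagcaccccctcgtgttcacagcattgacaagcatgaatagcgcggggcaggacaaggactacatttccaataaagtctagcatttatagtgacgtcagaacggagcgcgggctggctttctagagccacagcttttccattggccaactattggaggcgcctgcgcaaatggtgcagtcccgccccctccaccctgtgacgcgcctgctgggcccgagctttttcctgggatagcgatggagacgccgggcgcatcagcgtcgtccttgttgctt
ASTE1: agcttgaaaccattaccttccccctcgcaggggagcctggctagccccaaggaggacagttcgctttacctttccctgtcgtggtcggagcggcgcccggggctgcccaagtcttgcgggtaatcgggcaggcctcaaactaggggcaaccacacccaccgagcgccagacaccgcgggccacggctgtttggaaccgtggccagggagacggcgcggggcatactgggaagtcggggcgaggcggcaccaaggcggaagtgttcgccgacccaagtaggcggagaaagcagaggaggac
KLHL22: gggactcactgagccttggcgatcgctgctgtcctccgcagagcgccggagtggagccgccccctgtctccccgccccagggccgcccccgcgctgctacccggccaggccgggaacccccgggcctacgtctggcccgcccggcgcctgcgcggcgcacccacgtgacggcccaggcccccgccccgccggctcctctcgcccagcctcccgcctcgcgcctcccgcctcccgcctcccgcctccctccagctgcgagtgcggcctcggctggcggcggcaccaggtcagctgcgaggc
CRLF3: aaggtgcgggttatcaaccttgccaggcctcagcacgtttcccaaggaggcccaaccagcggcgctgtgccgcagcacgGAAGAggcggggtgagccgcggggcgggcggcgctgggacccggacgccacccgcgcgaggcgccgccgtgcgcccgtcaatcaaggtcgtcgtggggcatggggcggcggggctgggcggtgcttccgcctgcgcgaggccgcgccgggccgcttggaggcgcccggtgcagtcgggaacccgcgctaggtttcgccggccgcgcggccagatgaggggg

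Of these windows, only that of CRLF3 held the motif, once and on the opposite strand. Windows of 1 chromosome were left out of the counts that follow. Over the 43 other windows that met the same conditions, 16 (37.2%) held it on either strand, against 17953 of all 35116 RefSeq promoters (51.1%). The 35116 promoters were not limited by the peak, span and entry conditions, and the difference was not tested. In the 50 bases after the start, where the sense strand is transcribed, 1 of the 43 (2.33%) held TCTTC, against 5.98% of all promoters. A match is only a description of the letters, and the peaks themselves are on hg19, for which no sequence was read. Laid on the listed hg19 starts, the window shared 140 bases with the 25.65-fold peak of ESS2, whose product is found in spliceosomes, and lay whole within the 22.62-fold peak of ASTE1, which was also named for the neighbouring gene NEK11.

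Fold enrichment in these peaks ranged from 1.86 to 27.84, with a median of 7.12 (quartiles 5.20 and 9.48). The fold is the authors' ratio of PTBP1 signal over the IgG background. The median was 7.36 in the 1973 other lncRNA-list peaks and 7.08 in the 8479 mRNA-list peaks. A fold of at least 10 was reached by 202 peaks (23.1%), where the background was 25.3% of all lncRNA-list peaks and 24% of all mRNA-list peaks. The share of strongly enriched peaks among the noncoding isoforms was therefore close to the background.

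**Figure D1:**
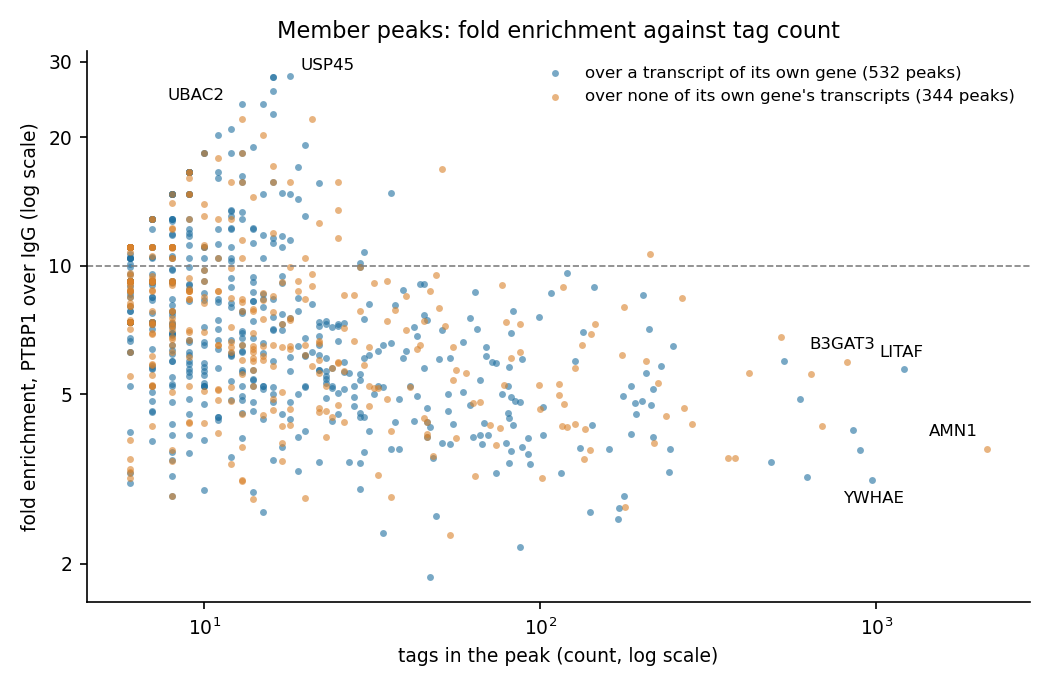
Fold enrichment of PTBP1 over IgG (log scale) against tags in the peak (log scale) for each of the 876 peaks, coloured by whether the peak overlapped a transcript of its own gene. The dashed line marks a fold of 10; the highest folds, led by USP45, lie below 30 tags, and AMN1, LITAF and YWHAE carry the most tags at folds between 3.15 and 5.72.

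Tag counts were mostly low. A typical peak held 13 tags (the median, with quartiles of 8 and 29), and 362 of the 876 peaks had 10 tags or fewer. The whole lists were much alike. All lncRNA-list peaks had a median of 12 tags, with 1238 of 2849 at 10 tags or fewer. All mRNA-list peaks had a median of 13, with 3498 of 8479. The median fold was 9.13 in the 327 peaks of 6 to 9 tags, 7.36 in the 250 peaks of 10 to 19, 5.81 in the 157 peaks of 20 to 49, 5.00 in the 68 peaks of 50 to 99 and 4.69 in the 74 peaks of 100 tags or more. The other lncRNA-list peaks followed the same order, with medians of 9.20, 7.56, 5.74, 4.98 and 4.47 in these bands.

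The folds of some small peaks also fell on fixed steps. Of the peaks with 10 tags or fewer, 147 of 362 (40.6%) had a fold within 0.01 of a whole multiple of 1.84, against 2.68% of the peaks with at least 20 tags. Among all peaks here with a fold of at least 10 the share was 54.5%. Over all 876 peaks it was 19.9%, against 21.8% of all lncRNA-list peaks and 19.5% of all mRNA-list peaks. The step was taken from the same data. It is the most frequent fold of the peaks of 6 tags in both lists together, 11.04, divided by 6. That value stood at 460 of those 1439 peaks, so small peaks match the step in part by construction.

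The false discovery rate was high throughout, from 43.1% to 100% with a median of 44.87%. The median was 44.91% in all lncRNA-list peaks and 44.97% in all mRNA-list peaks. Across bands of the rate the median p score (10 times the negative log10 of the p-value) rose, though not peak by peak. The 483 peaks with a rate under 45% had a median score of 43.2 and a lowest score of 33.85. The 308 peaks from 45% to under 50% had a median score of 56.7 but a lowest score of 30.03. The 13 peaks at 100% had a median score of 253. Sorting these peaks by the rate would thus put those with the smallest p last.

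The highest fold belonged to USP45, a deubiquitinating enzyme, with 27.84-fold and 18 tags in a promoter-class peak on chromosome 6 (99962585 to 99963253). MRPL42, a protein of the mitochondrial ribosome, followed with 27.61-fold and 16 tags, its midpoint 1811 bases after the start. SMPD4, a neutral sphingomyelinase, had an intron peak of the same 27.61-fold and 16 tags. These peaks overlapped noncoding and coding transcripts alike.

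ATF7IP2, a relative of a cofactor of heterochromatin formation, had 23.93-fold (15 tags) near its start, and UBAC2, a protein of the endoplasmic reticulum, had 23.93-fold (13 tags) in an exon. Both SPINK13 peaks of 22.09-fold (21 and 13 tags) lay 9652 and 8575 bases before the gene, which encodes a Kazal-type protease inhibitor. SLC29A2, an equilibrative nucleoside transporter, closed this group with 20.88-fold and 12 tags. All of the 10 highest folds rested on 12 to 21 tags.

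The peaks with the most tags were a different set, with folds between 3.15 and 5.96. The largest held 2132 tags over 767 bases and lay 25786 bases before AMN1, in the intergenic class, at 3.72-fold. It had 2780 tags per kb, more than any of the next 9 peaks. LITAF, a membrane protein of late endosomes, had 1208 tags at 5.72-fold in an exon (555 per kb), and YWHAE, a 14-3-3 adaptor, had 969 tags at 3.15-fold (783 per kb).

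TMEM9, a lysosomal membrane protein, had 893 tags at 3.69-fold in an exon. SLC3A2, the heavy chain of a family of amino acid transporters, had 623 tags at 3.19-fold in an exon, and the kinase-like gene ULK4 had 594 tags at 4.86-fold in an intron. The 10 peaks with the most tags held 25.2% of the 37316 tags in these peaks, and the library in which tags were counted is not given in the file.

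Each peak carried 1 annotation class, and the shares of the exon, intron, promoter and intergenic classes differed from those of the other lncRNA names by more than counting error. Promoter-class peaks numbered 251 (28.7%, 95% Wilson interval 25.8 to 31.7), exon peaks 211 (24.1%, 21.4 to 27.03), upstream peaks 184 (21.0%), intron peaks 122 (13.9%) and intergenic peaks 108 (12.3%). Exon peaks were 3.35% of the other lncRNA-list peaks and 32.4% of the mRNA-list peaks. Intergenic peaks were 41.4% of the other lncRNA-list peaks and 15.2% of the mRNA-list peaks. Promoter-class peaks were 20.9% of either. Intron peaks were 9.88% of the other lncRNA-list peaks and 15.1% of the mRNA-list peaks, and upstream peaks were 24.5% and 16.4% of them. These intervals cover counting error only, and peaks of 1 gene are not independent.

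**Figure D2:**
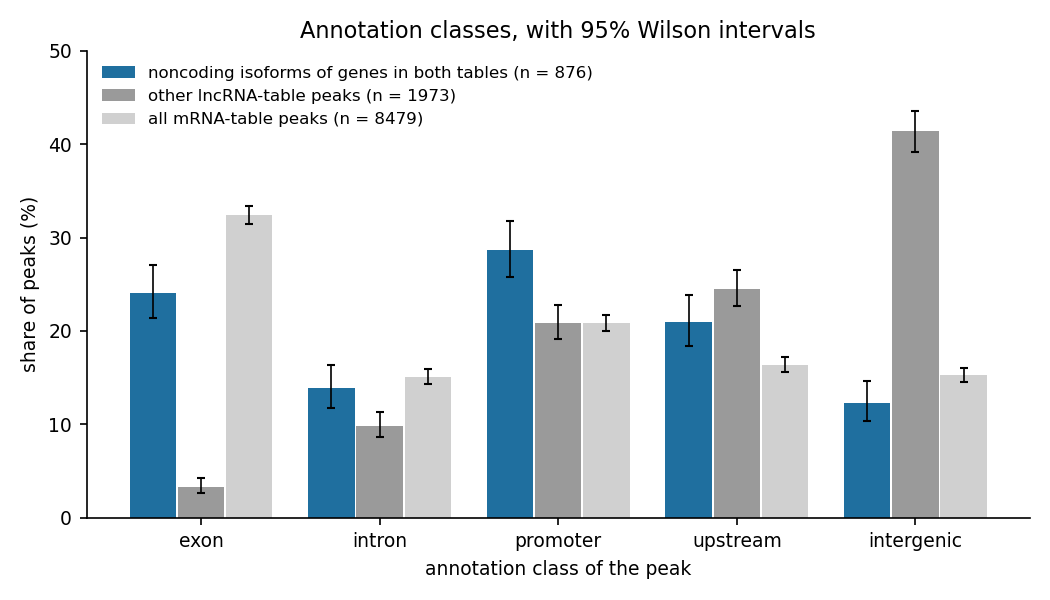
Share of peaks (%) in each annotation class for the 876 peaks at noncoding isoforms, the 1973 other lncRNA-list peaks and the 8479 mRNA-list peaks, with 95% Wilson intervals as error bars. The exon share of the noncoding isoforms, 24.1%, lies between 3.35% and 32.4%, and their promoter share of 28.7% is above the 20.9% of both other groups.

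Exon peaks had the lowest median fold of the classes, 5.98, with a median of 14 tags. After UBAC2 the highest were THAP12, a THAP-domain protein, at 19.14-fold (20 tags) and MPHOSPH9, a centrosomal protein, at 18.40-fold (13 tags). Intron peaks had the highest median fold, 8.46, on a median of 9.5 tags. After SMPD4 the highest were CAMTA1, a transcription activator, at 18.40-fold (10 tags) and AMN1 at 16.56-fold (9 tags). The upstream class was led by SPINK13 and RABGEF1, an exchange factor of the endosomal GTPase RAB5, at 18.40-fold (10 tags).

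Intergenic peaks had a median fold of 7.67. MCCC1, a subunit of the carboxylase for leucine breakdown, led with 20.25-fold (15 tags), 23459 bases before its start. HINT1, a nucleotide hydrolase, followed with 17.86-fold (11 tags) at 156409 bases after its start, and SSR1, a subunit of the translocon-associated complex, with 17.07-fold (16 tags) at 52215 bases after it. None of these 3 overlapped a listed transcript of the gene that named it.

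The study's list thus named a noncoding isoform at each of these positions, and the next question was how many could be told from the coding isoforms of the same gene. Almost none could. At the same position, 860 of the 876 peaks (98.2%, 97.1 to 98.9) were also listed in the mRNA list for the same gene, and the class was identical in all 860. The choice of genes present in both lists makes such sharing likely, so the share is a description of the lists. In the other direction, 860 of the 907 mRNA-list peaks of these genes (94.8%) were among the 876.

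The transcripts of these genes mostly began and ended together. Of the 549 genes, 528 had a listed noncoding and a listed coding transcript with the same start, 509 with the same end and 489 with both shared. At 782 of the 860 shared peaks (90.9%) the nearest noncoding and coding starts were equally placed. They were over 1000 bases apart at 18 peaks and over 10000 at 7. At 6 of these 7, all but SLC3A2, some coding transcript listed at the peak still shared its start with the first listed noncoding transcript.

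Of these 7 peaks, the widest gap was 44822 bases at B3GNTL1, a glycosyltransferase-like gene, where an intron peak of 6 tags (9.20-fold) lay 62899 bases from the start of the nearer of 2 noncoding isoforms and 107721 bases from the coding start, which the first listed noncoding isoform shares. At TBC1D2, a regulator of RAB GTPases, an exon peak of 48 tags (3.55-fold) lay 46839 bases from the noncoding start but 4669 bases from the nearest coding start. The bicarbonate transporter SLC4A7 had 2 exon peaks with a gap of 27666 bases between nearest starts, of 6 and 8 tags (10.44- and 6.20-fold).

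By overlap, 514 peaks shared at least 1 base with listed noncoding and coding transcripts of their gene, 8 with the noncoding alone, 10 with the coding alone and 344 with neither. The first listed noncoding transcript was overlapped by 519 peaks (59.2%, 56.0 to 62.5), against 25.4% of the other lncRNA-list peaks and 64.2% of the mRNA-list peaks. At the level of genes, 364 of 549 (66.3%) had at least 1 peak over it.

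**Figure D3:**
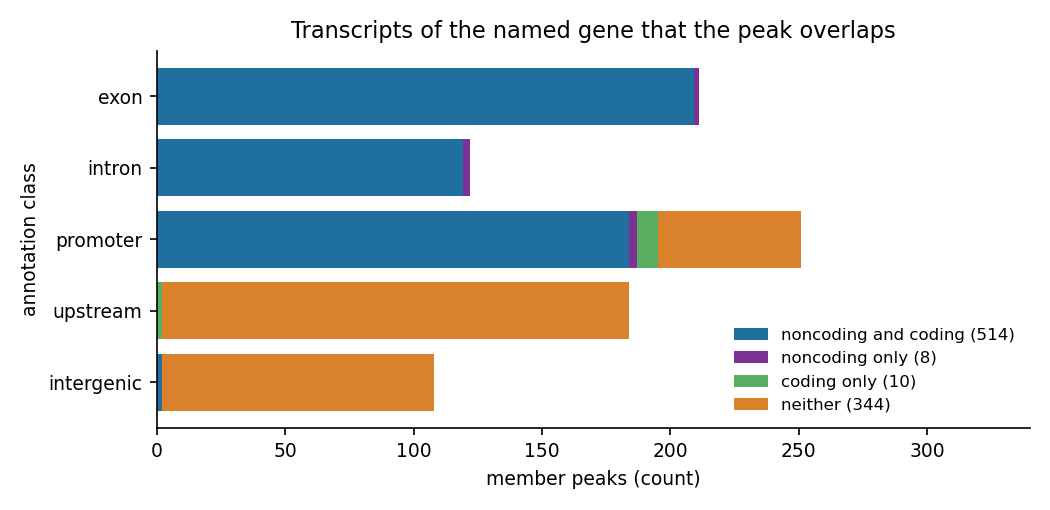
Number of peaks in each annotation class, divided by which listed transcripts of the named gene the peak overlapped. Exon and intron peaks lie almost wholly over noncoding and coding transcripts together, the 8 peaks over a noncoding transcript alone are a sliver, and 182 of 184 upstream and 106 of 108 intergenic peaks overlap neither.

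The 8 peaks over a stretch that, of the listed transcripts, only a noncoding one covered were at 7 genes. Coding transcripts were only those that the mRNA list holds, so an unlisted coding isoform may reach these peaks. RNF32, a RING finger gene, had an exon peak of 18 tags and 14.72-fold on chromosome 7 (156467970 to 156468909), 14926 bases beyond the end of the nearest coding transcript. PHF14, a PHD finger gene, had 6 tags at 10.62-fold within an intron, 57262 bases beyond its coding end. At MRPS25, a protein of the mitochondrial ribosome, a peak of 66 tags at 5.40-fold lay within an intron of the noncoding transcript, 2394 bases beyond the coding end.

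CP, which encodes the copper carrier ceruloplasmin, had an exon peak of 8 tags (6.96-fold) and an intron peak of 6 tags (4.07-fold) there, 9600 and 5213 bases beyond its coding end, but both also lay over transcripts of the neighbouring gene HPS3. The MRPS25 peak likewise lay over NR2C2. The remaining 3, at C20orf27, TMEM79 and ZNF689, were promoter-class peaks of 7 to 14 tags that lay 86 to 832 bases before a coding start. Peaks carry no strand, so none of these can be given to 1 gene where transcripts overlap.

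A second small group was the 16 peaks that the mRNA list did not name for the same gene. Their median fold was 10.8, and 9 of 16 had a fold of at least 10, on a median of 8.5 tags. Of these, 10 were intron peaks, and 8 of 16 still overlapped a coding transcript that the mRNA list gives elsewhere for the gene. CAMTA1 at 18.40-fold, AMN1 at 16.56-fold, RNF32 at 14.72-fold and FBXL4, an F-box gene of mitochondrial upkeep, at 14.32-fold led this group. With 14 genes and 6 to 19 tags in most of them, it is too small to set against the rest.

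The deepest of the 16 lay behind CHRAC1, a histone-fold protein of a chromatin remodelling complex. It had 178 tags at 8.0-fold over 5046 bases, and a second peak of 77 tags at 9.0-fold followed it. Both were intergenic, with midpoints 11542 and 15448 bases after the noncoding start.

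Along the noncoding transcripts, exon peaks gathered at the end. The midpoint was in the last 10% of the transcript in 91 of 211 exon peaks (43.1%, 36.6 to 49.9) and in the first 10% in 4. Position was taken along the genomic span, introns included. Promoter-class midpoints reached 1811 bases after the start and exon-class ones began at 2403, so the classes themselves leave few exon peaks near the start. The share in the last 10% was 36.4% of 66 exon peaks of the other lncRNA names and 35.2% of 2747 exon peaks of the mRNA list, and the 95% intervals of all overlapped. Intron peaks were spread, with 10 of 122 (8.20%) in the last 10%. The exon peaks at the end were longer and deeper than those before it, with a median of 869 against 341 bases and 21 against 11 tags, and 20 against 8 of them had at least 100 tags.

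**Figure D4:**
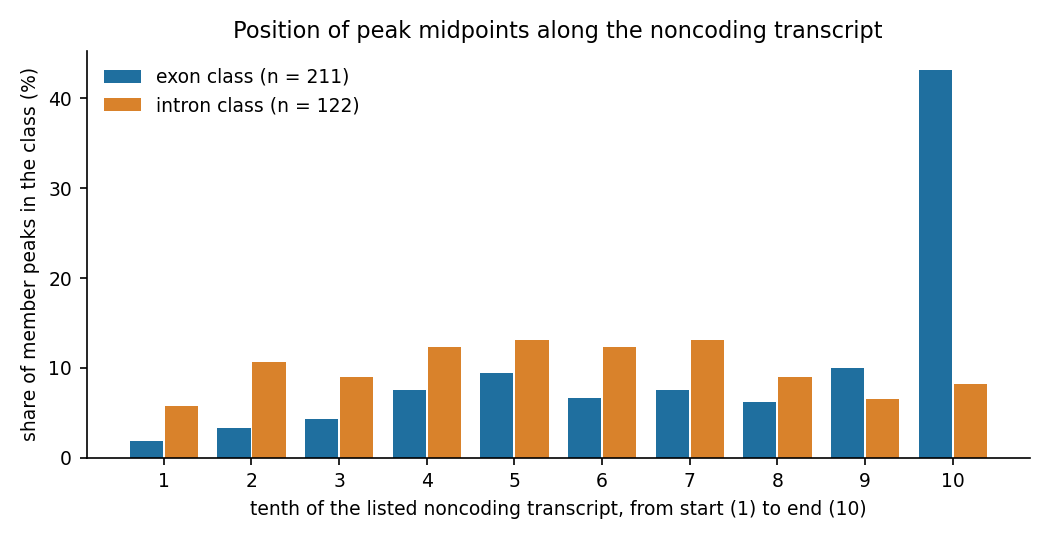
Share of exon-class (n = 211) and intron-class (n = 122) peaks with their midpoint in each of 10 equal parts of the first listed noncoding transcript, counted from its start. The last part holds 43.1% of the exon peaks and 8.20% of the intron peaks. Parts are of the genomic span, introns included.

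LITAF, YWHAE and TMEM9, named above for their tags, are exon peaks, and the midpoints lay 38726, 55233 and 19230 bases after the noncoding start. Promoter-class peaks lay mostly behind the start, with 165 of 251 midpoints (65.7%) after it, against 58.0% for the other lncRNA names and 71.2% in the mRNA list. Where both starts were known the noncoding and the coding start were equally near in 206 of 250, the coding start was nearer in 37 and the noncoding start in 7.

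Peaks outside the named gene made up 344 of 876 (39.3%) and held 42.8% of the tags, with 2132 of their 15989 tags in the AMN1 peak. Of the 344 peaks, 106 lay over a transcript of another gene in the lists. All but 26 of the 106 were upstream-class peaks. Of the 26 promoter-class peaks, 23 were named for the covered gene too, and of the 80 upstream peaks none was. No intergenic peak lay over another listed gene. Only transcripts that the lists hold were searched, so the true number is at least this.

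Deep peaks often lay over a neighbour. Of the 74 peaks with at least 100 tags, 35 overlapped no transcript of their own gene, 18 of these lay over another listed gene, and in 13 of the 18 the midpoint was in the last 10% of that gene. Over all 344 peaks outside their own gene, 106 (30.8%) lay over another listed gene, and 30 of these 106 (28.3%) were in its last 10%. The 818-tag peak named for B3GAT3, a glucuronyltransferase of proteoglycan synthesis, lay over GANAB, the catalytic subunit of glucosidase II, 566 bases before its end. The 689-tag peak named for STKLD1 lay over SURF4, a cargo receptor of the endoplasmic reticulum, 1087 bases before its end.

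FAM133B had 2 such peaks of 175 and 146 tags over CDK6, a cell cycle kinase. A 212-tag promoter-class peak named for IPO4 lay 150 bases before the end of TM9SF1, and at 10.65-fold it was the only peak of at least 100 tags with a fold above 10.

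Most genes had 1 peak. There were 339 genes with 1, 138 with 2 and 72 with 3 or more, of which 13 had 5 or more. NDC1, a membrane protein of the nuclear pore, had 6 peaks, all over its transcripts. They were 5 exon peaks and 1 promoter-class peak with folds from 4.35 to 15.62, and the deepest, 211 tags at 7.12-fold, lay 71771 bases after the start. KLF7, a zinc finger transcription factor, had 5 peaks over its transcripts, 4 of them in exons, with folds from 5.65 to 12.88 and 10 to 43 tags.

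SREBF2, the master regulator of cholesterol synthesis genes, also had 6. Its 4 exon peaks had 241, 34, 30 and 193 tags at folds of 3.28, 2.36, 4.43 and 4.48, and the 2 before the gene had 50 and 18 tags at 7.97- and 7.55-fold. SOAT1, a cholesterol esterifying enzyme, had 2 exon peaks, 2 intron peaks and 1 promoter-class peak with folds from 2.65 to 11.25. PHYKPL, an enzyme of hydroxylysine breakdown, had 4 intron peaks and 1 promoter-class peak, from 5.18- to 9.13-fold.

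Other genes with many peaks had most of them outside. APOM, an apolipoprotein of HDL, had 7 peaks of 46 to 114 tags and folds of 3.68 to 5.61, all of them over BAG6, a chaperone gene, and 6 of 7 in the upstream class. ATP5L, a subunit of ATP synthase, had 5, of which 4 lay over the ubiquitin ligase gene UBE4A. SPINK13 had 7, of which 2 overlapped its own transcripts. SLC25A51, the mitochondrial NAD carrier, had 6 peaks at 4.86- to 14.47-fold and none over its transcripts.

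KCNC4, a voltage-gated potassium channel, had 5 peaks of 6 to 9 tags, 3 of them intergenic. AGBL5, a carboxypeptidase that acts on tubulin, had 5, and the deepest, 520 tags at 6.82-fold, lay 10691 bases before the gene. NBPF8 had the most peaks, 9, with 6 to 18 tags and folds of 5.69 to 9.20. Its listed noncoding transcript spans 772608 bases of a duplicated region, 4 of its peaks lay over transcripts of NBPF9, NBPF11 or NBPF14, and reads of these near-identical copies may have been split or shared, so its values are uncertain.

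By function, the 549 genes were 10.6% of the 5186 genes of the mRNA list, and 16 gene lists were read against that share. Of 39 genes of the mitochondrial ribosome and respiration with an mRNA-list peak, 10 were among the 549 (25.6%, 14.6 to 41.1). They were led by MRPL42, by ATP5L at 15.66-fold (12 tags, over UBE4A) and by MRPL48 at 12.88-fold (7 tags). Of 56 DNA repair and replication genes, 11 were (19.6%, 11.3 to 31.8), led by RAD51D, a gene of homologous recombination, at 15.66-fold (18 tags, upstream, over FNDC8). PARP11 and ORC6 followed at 12.88- and 11.07-fold, both intergenic. Genes entered the list by name. PARP11 and PARP12 were counted without a check of their part in repair, and the share without them was not computed.

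Of 111 solute carriers, 18 were (16.2%, 10.5 to 24.2). After SLC29A2 the highest were SLC12A2, a chloride cotransporter, at 16.56-fold (9 tags) in an exon and SLC25A51. The zinc finger ZNF genes, with 15 of 122, were led by ZNF74 at 15.66-fold (13 tags), ZNF431 at 12.88-fold (8 tags) and ZNF616 at 11.04-fold (8 tags). Of the vesicle coat, sorting and tethering genes, 12 of 87 were, with VAMP7, CHMP3 and COG6 each at 11.04-fold on 6 tags.

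The chromatin genes had 9 of 81, led by INO80, a remodelling ATPase, at 16.56-fold (9 tags) in an exon. The ubiquitin genes had 14 of 135 with a median fold of 9.10, and 11 of their 26 peaks had a fold of at least 10, against 202 of all 876. The same count was 7 of 35 for the solute carriers, 6 of 20 for the mitochondrial list, 4 of 20 for DNA repair and replication and 3 of 15 for the protein kinase list. It was 6 of 18 for the chromatin list, 5 of 17 for the vesicle list and 3 of 7 for motors, tubulins and centrosome. In the ubiquitin list USP45, FBXO44 at 16.56-fold (9 tags) and TRIM8 at 15.66-fold (25 tags, upstream, over SUFU) stood highest. Splicing and pre-mRNA processing genes had 8 of 88. RBMX, an hnRNP protein, had 12.58-fold in an intergenic peak, PRPF4 of the spliceosome 10.13-fold near its start and DHX9, an RNA helicase, 9.20-fold in an intron. The splicing factor SRSF3 had 62 tags at 4.71-fold in an intron.

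Several lists were under the share of all genes, each with a 95% interval that included 10.6%. There were 10 of 123 in the protein kinase list, which was made by name and counts PRKAB2 and CDK5RAP2, the latter also in the centrosome list. There were 5 of 59 phosphatases, 5 of 86 motor, tubulin and centrosome genes and 6 of 113 small GTPases and regulators. Genes of mRNA decay and translation control had 3 of 56. These 3 were DCP2, the decapping enzyme, at 18.40-fold (12 tags) in an exon, CNOT9 of the deadenylase complex at 8.35-fold and DIS3L2, an exonuclease, at 7.36-fold. The ribosomal proteins had 1 of 16, and the NBPF family, above the share of all genes, had 2 of 9 (22.2%, 6.32 to 54.7). The TGF-beta list had none of 20, with TGFB2 left out by the choice of genes. Of the lists, only the intervals of the mitochondrial and the DNA repair genes lay above 10.6%, the latter with PARP11 and PARP12 counted. The lower end of the DNA repair interval, 11.3%, was close to 10.6%, so its place above that share may not hold without them. Of the peaks, 9 of 20 mitochondrial and 7 of 20 DNA repair peaks overlapped the first listed noncoding transcript, against 519 of all 876. How many genes of each list have a noncoding isoform in RefSeq was not counted, and these shares are a description of names, not a test.

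**Figure D5:**
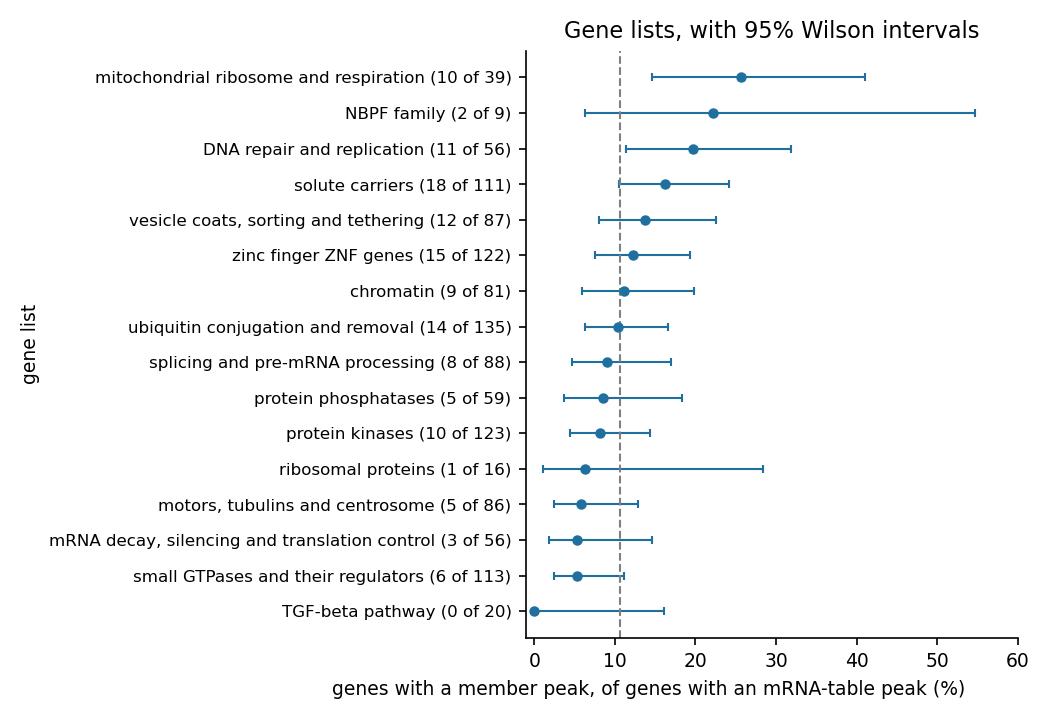
Share (%) of the genes with an mRNA-list peak that also had a peak named for a noncoding isoform, for 16 gene lists with 95% Wilson intervals, counts in brackets, and the 10.6% of all 5186 genes as a dashed line. The mitochondrial list at 25.6% and the DNA repair list at 19.6% are the only ones whose intervals lie above the line. The DNA repair list counts PARP11 and PARP12, and its place above the line may not hold without them.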

How the data were processed

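RNA that came down with a PTBP1 antibody or with rabbit IgG was sequenced from MKN-28 cells, 1 library each. The submitters' processing notes name cutadapt (1.9.3), Bowtie2 (2.2.4) and hg19. The sources used here do not name the peak caller. The authors deposited 2 full peak tables, for mRNA and lncRNA, and 2 promoter tables that repeat their promoter rows. For each peak the authors gave the tag count, the fold enrichment as a ratio, the p-value as a score and the false discovery rate as a percent. Which library the tags were counted in is not stated, and library totals are not known here, so the depth per library is unknown.

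Each position was counted once. Overlap was at least 1 base of the listed span. Intervals of shares are 95% Wilson intervals and cover only counting error. Promoter sequences and gene classes are from RefSeq (GRCh38.p14). The peaks and gene lists were chosen with earlier results of these data known. The named genes were the 10 highest folds and tag counts, those with at least 3 peaks, the 3 highest folds of each class and list, and the 3 widest start gaps. Some that met this rule are not reported here, and genes of peaks over noncoding transcripts alone, of peaks absent from the mRNA list or over other genes, and SRSF3, were chosen after their values were seen. The tools were pandas (2.3.3) in Python (3.11.15), scipy (1.17.1) with numpy (2.4.6), and matplotlib (3.10.9), and the scripts were tested on simulated data. The 37 alternatives covered thresholds, tag minimums, the genes left out, merged peaks and other overlaps.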

Additional observations from a re-analysis of the deposited data

How the results depend on the processing

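Of 37 recomputed values, 25 stayed within 1.5 times the count or within the 95% interval given above. With a fold of at least 10 there were 202 peaks at 174 genes. A p score of 50 or more left 353 peaks at 273 genes, with a median fold of 8.65. With at least 20 tags there were 299 peaks at 234 genes, the median fold was 5.30, the share also listed in the mRNA list was 99% and the exon share was 28.8%. With only peaks over the listed noncoding transcript there were 364 genes, and with 1 value per gene the median fold was 8.16. Keeping TGFB2, ACTG1 and RPL22L1 gave 881 peaks at 552 genes, and no peaks overlapped, so merging left 876. The share over the noncoding transcript stayed between 56.5% and 59.9%. No paired analysis was possible because there was 1 library per group. Tags per peak limit precision, since 362 peaks had 10 tags or fewer.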
